A study of Homo sapiens with 40 samples.

Results

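The interferon-stimulated genes and nucleic acid sensors described here are 46 genes of the 19962 in the count table, matched by Ensembl identifier to a given list of symbols. The matching used no measured value, but the list was chosen with earlier results of these data known. All 46 were in the table. Type I and type III interferons signal through cell-surface receptors, the kinases JAK1 and TYK2 and a transcription factor complex that contains STAT2 and IRF9, which binds a promoter element called the interferon-stimulated response element (ISRE). The induced genes include proteins that bind or cut foreign RNA, proteins that stop viruses from entering or leaving a cell, the machinery that attaches the small protein ISG15 to other proteins, and the sensors themselves. The cytosolic sensors RIG-I (gene DDX58), MDA5 (IFIH1) and PKR (EIF2AK2) recognise double-stranded RNA, and cGAS (CGAS) recognises cytosolic DNA, so transfected RNA and broken DNA are 2 inputs that this network is known to respond to in many cell types.

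The cells were RKO, an established human colorectal carcinoma line, carrying doxycycline-inducible Cas9 and GFP. Lentivirus added a pair of guide RNAs with a BFP marker, and marker-positive cells were sorted, giving 3 lines with guides against the non-coding AAVS1 locus (sgAAVS1), IGF2BP2 (sgIGF2BP2) or IGF2BP3 (sgIGF2BP3). Each line was given DMSO or doxycycline (Dox, 250 ng/mL for 72 h), and the sgIGF2BP2 and sgIGF2BP3 lines were also transfected with a non-targeting siRNA (siControl) or with a pool against IGF2BP2 (siIGF2BP2) or IGF2BP3 (siIGF2BP3), at 75 nM for 48 h. Every cell also received the nucleoside s4U (250 µM for 2 h), so no group shows the genes without it. Each of the 10 groups has 4 libraries of poly(A) RNA, 1 per culture well. The labels name no separate days or cell batches, so p-values measure the spread between wells. Dox added the drug, Cas9 and cutting together, and siControl against DMSO differs in transfection, siRNA, solvent and time; within each comparison these cannot be told apart. In bulk RNA, a change in few cells and a smaller change in all cells cannot be told apart either.

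The libraries held between 10018181 and 24822807 counts each, with a median of 13468792. IGF2BP2 was at 33.9 ± 3.50 CPM (counts scaled to a common library size, mean ± SD, n = 4) in sgIGF2BP2 cells with Dox against 85.3 ± 1.58 with DMSO, and at 30.2 ± 1.08 with siIGF2BP2 against 108.4 ± 4.10 with siControl. IGF2BP3 was at 56.2 ± 3.62 CPM in sgIGF2BP3 cells with Dox against 180.2 ± 4.09 with DMSO, and at 24.8 ± 1.56 with siIGF2BP3 against 169.8 ± 4.78 with siControl. The other gene of the pair also moved in sgIGF2BP2 cells with Dox, where IGF2BP3 was at 151.1 ± 4.24 CPM against 178.9 ± 9.22 with DMSO. In sgIGF2BP3 cells IGF2BP2 was at 97.6 ± 5.09 CPM with Dox against 94.4 ± 2.43 with DMSO. With siControl IGF2BP2 was above DMSO in both lines, at 108.4 against 85.3 CPM and at 114.9 against 94.4. The epithelial keratins KRT8 and KRT18 and the intestinal factor CDX2 were expressed, whereas the defining epithelial genes CDH1, KRT19 and VIL1 had group means of at most 0.0763 CPM. The immune markers summed to 1.11 to 3.62 CPM per library, nearly all of it CD68, and the leukocyte gene PTPRC had no count in 9 of the 10 groups. Replicate pairs differed by a chi-square of 1.49 to 16.6 per gene (median 2.27). The 6 of 60 pairs above 5 all held sgIGF2BP2 Dox replicate 2 or sgIGF2BP2 siIGF2BP2 replicate 3, and the member calls and the pathway genes named for these 2 groups are also given without them.

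Promoters that carry the ISRE pattern are shown first, because many interferon-stimulated genes are known to be induced through it. RefSeq windows (GRCh38.p14, 250 bases before to 50 after a transcript start) were found for 35 of the 46 members. The pattern GAAANNGAAA, searched on both strands with overlapping matches counted, was in 27 of their 48 windows (56.2%), against 3.57% of all 35116 windows and 2.84% of the 13650 windows of genes tested here. It was found for 23 members, 19 of the 28 with a window that were expressed enough to test and 4 of the 7 that were not. UBE2L6, STAT2, HERC6, SP100, ADAR, DDX58, CMPK2, OAS1, IRF1, IRF9, IFI35 and XAF1 had no match in these windows. That says only that these letters are absent there. The stretches below run 5′ to 3′ along the gene's own strand, and capitals mark the matched pattern or its reverse complement. Only members with a match could be shown. IFIT3, IFI6 and SAMD9 are shown because they were called higher in at least 3 comparisons of treatments. UBE2L6 was called higher in 5, the most of any member, but has no match to show. BST2 and ISG15 are shown because they were among the 5 most abundant members per length, and IFIT1 because it was close to silent with the same pattern. IFITM3 was also among those 5 and had 2 matches, but it is not shown.
IFIT3 (chr10:89332428-89332494, plus strand): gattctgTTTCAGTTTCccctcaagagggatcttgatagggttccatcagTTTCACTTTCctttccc
IFI6 (chr1:27672269-27672355, minus strand): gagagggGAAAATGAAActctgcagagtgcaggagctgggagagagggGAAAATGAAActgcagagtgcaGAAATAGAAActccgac
SAMD9 (chr7:93118099-93118122, minus strand): gagaaatGAAACTGAAAccaaacc
BST2 (chr19:17405738-17405767, minus strand): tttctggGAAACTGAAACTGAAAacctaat
ISG15 (chr1:1013377-1013406, plus strand): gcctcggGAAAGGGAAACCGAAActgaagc
IFIT1 (chr10:89392500-89392536, plus strand): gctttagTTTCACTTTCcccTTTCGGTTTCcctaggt
All 6 stretches lie upstream of the RefSeq start they were taken from, between 163 and 35 bases before it. The BST2 stretch also lies in an exon of the lincRNA BISPR on the other strand, and 11 bases of the IFIT3 stretch lie in the first exon of another IFIT3 transcript (GENCODE release 29).

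Of the 46 members, 34 had enough counts to test (73.9%, against 57.2% of all genes in the table), and 12 did not. The members that were expressed spanned a wide range of levels. Scaled by exon length, the highest were the viral tetherin BST2 with 356 CPM per kilobase, the viral entry inhibitors IFITM2 with 145 and IFITM3 with 70.4, the ubiquitin-like modifier ISG15 with 59.9 and the RNA-editing deaminase ADAR with 33.8. The median over the 34 tested members was 4.38 CPM per kilobase, against 5.89 over all 11428 tested genes. IFITM1, IFITM2 and IFITM3 are close paralogs, and IFITM1 shares 351 exon bases with IFITM2 on the same strand, so how reads were divided among them is uncertain.

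The 12 untested members include several of the genes most often used to read an interferon response. IFI44L and XAF1 had no count in any of the 40 libraries. IRF9, the DNA-binding partner of STAT2, had 1 count in all, but it shares 1838 exon bases on the same strand with another annotated gene, AL136295.5, which had no count either, so its level here is uncertain. OASL had 5 counts in all libraries together, STING1 had 11 and OAS1 had 20. STING1 encodes the adaptor that receives the cGAS signal, and its highest count in any library was 2. MX2 totalled 52 counts, OAS2 119, DHX58 140, IFI44 155, IFITM1 197 and IFIT1 234, with mean levels of at most 0.414 CPM. IFI44L and XAF1, without a count, could not enter any fit. When the filter on low counts was left out, none of the others was called in any of the 15 comparisons by edgeR's quasi-likelihood test. With so few counts, that result says little about whether these genes changed.

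Among the sensors and effectors of foreign RNA, ADAR (33.8 CPM per kilobase), the synthetase OAS3 (10.1) and PKR (8.93) were well expressed, while RIG-I (DDX58, 1.24) and MDA5 (IFIH1, 0.828) were low and LGP2 (DHX58, 0.0639), a regulator of both, was lower still. The OAS enzymes make the messenger that activates RNase L, and of the 4 family members OAS3 was the one expressed at a testable level. OAS2 had a group mean of at most 0.389 CPM and OAS1 of at most 0.113. The DNA sensor cGAS was at 10.8 CPM per kilobase, followed in the order of levels by OAS3 and PKR. These 3 lay close together, and their order depends on the exon lengths of the annotation, whereas RIG-I and MDA5 were well below them.

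Groups were compared with edgeR's quasi-likelihood test, and a gene was called when its Benjamini-Hochberg adjusted p over all 11428 tested genes was under 0.05. Of the 34 tested members, 25 (73.5%) were called in at least 1 of the 7 comparisons of treatments, against 7251 (63.4%) of all genes, and 48 calls were made in all. A 1.5-fold change was reached by 10 of the 48 calls and a 2-fold change by 2: IFIT2 with siControl and IFI6 with Dox, both in sgIGF2BP2 cells. The share of such sizes among all called genes is not given here, so these counts do not set the members apart. The 9 members called in none were ISG15, HERC5, IRF7, DDX58, IFIH1, EIF2AK2, IFITM3, PARP14 and IFI27. ISG15, the modifier that gives the conjugation system its name, had group means between 52.4 and 63.2 CPM in all 10 groups. Several comparisons share libraries (Dox and siControl share DMSO within a line, and siControl enters with opposite sign in the next comparison), so their values are set side by side and not counted as independent.

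**Figure D1:**
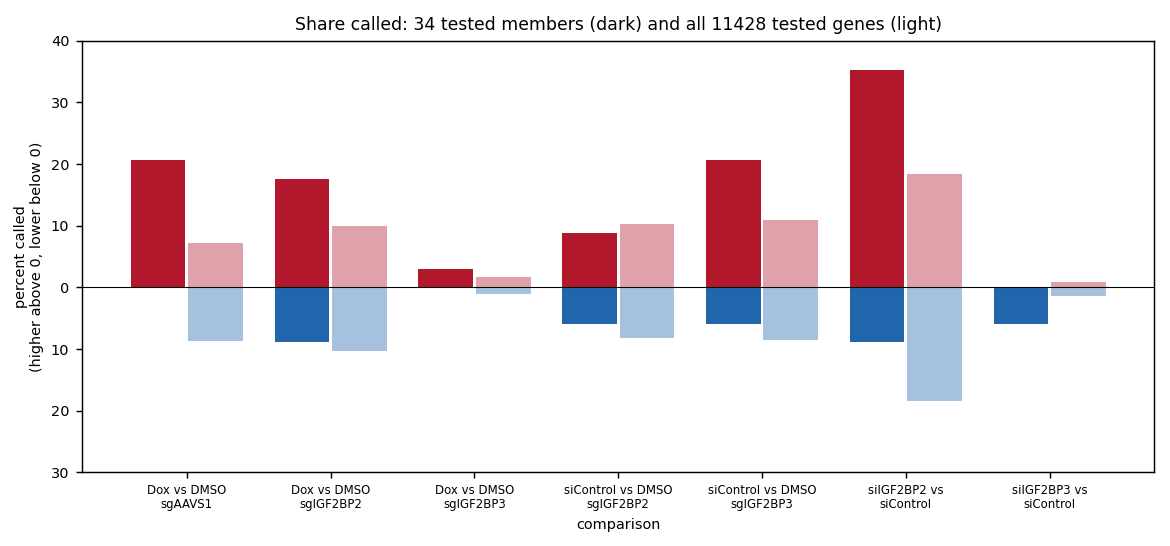
Percent of the 34 tested members (dark) and of all 11428 tested genes (light) called higher (red, above 0) or lower (blue, below 0) in the 7 comparisons of treatments. With Dox in sgAAVS1 cells 20.6% of members and 7.25% of all genes were called higher, and with siIGF2BP2 the shares were 35.3% and 18.4%.

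**Figure D2:**
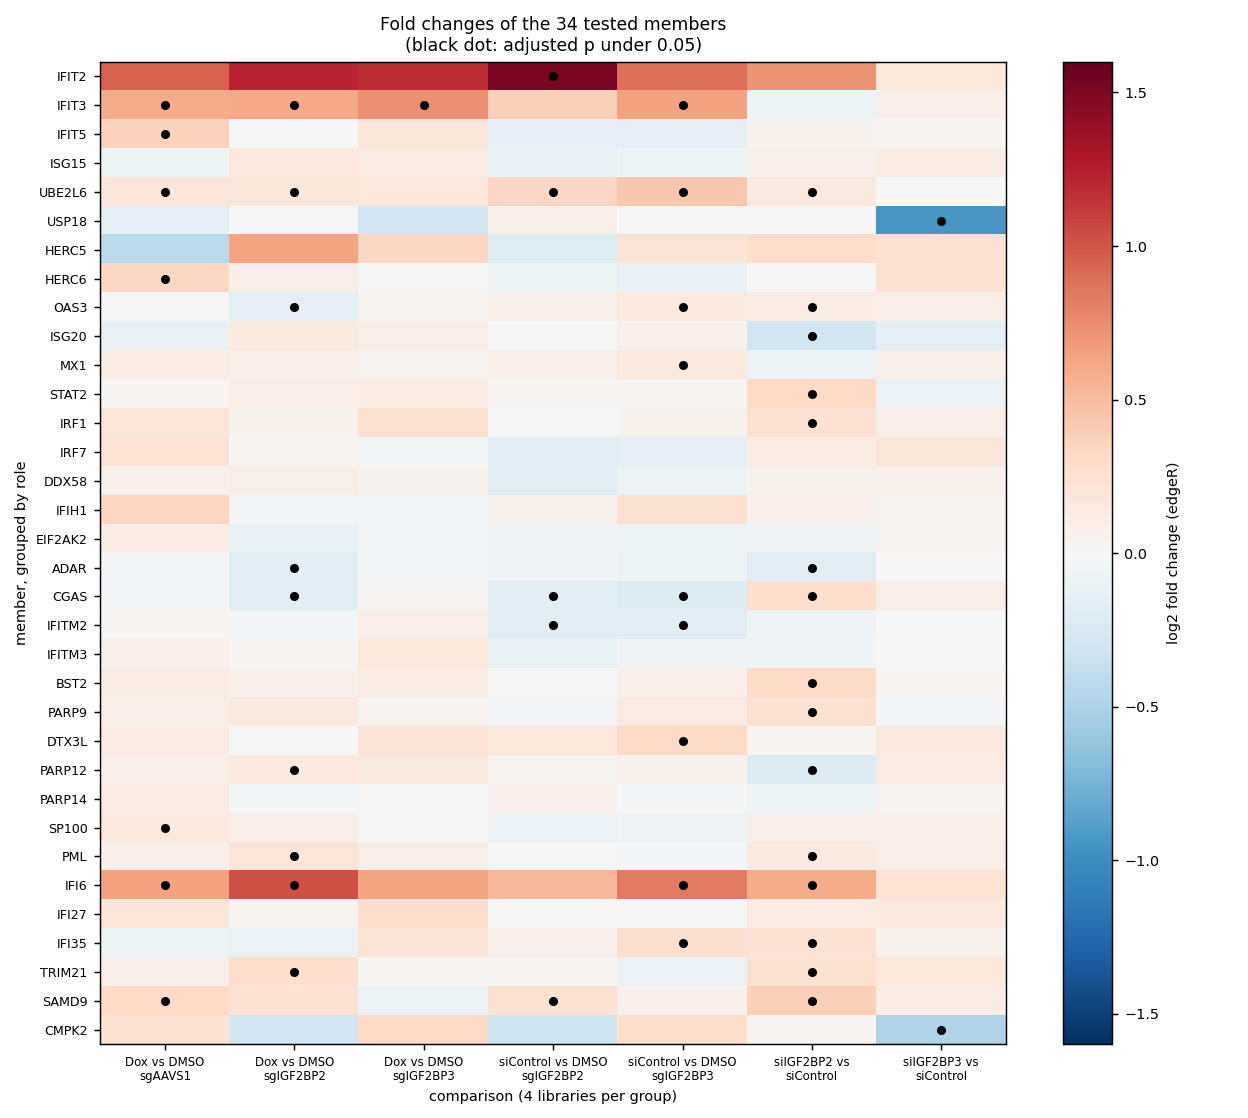
Log2 fold change of the 34 tested members in the same 7 comparisons, in edgeR's fit of 4 libraries per group; red is higher, blue is lower, and a black dot marks an adjusted p under 0.05. IFIT2, IFIT3 and IFI6 have the deepest red, and the column of siIGF2BP3 holds 2 dots, both on lower genes.

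Cas9 induction with guides against AAVS1 asks what Dox, Cas9 and cutting do without loss of an IGF2BP gene. All members called were higher, 7 of 34 (20.6%), against 7.25% of all genes called higher and 8.68% called lower (15.9% called in all). The median log2 fold change was 0.113 over members and 0.004 over all genes, and 26 of 34 members were above 0. IFIT3, which binds RNA together with other IFIT proteins, was at 2.88, 3.12, 2.29 and 2.36 CPM in the DMSO libraries and at 5.26, 3.24, 3.66 and 3.71 with Dox. The 4 Dox values lay above the 4 DMSO values, a log2 fold change of 0.60 (SE 0.18, adjusted p = 0.0143). IFIT5, a relative that acts as a monomer, rose from 16.0 ± 1.12 to 20.6 ± 0.190 CPM (log2 0.36, SE 0.080, adjusted p = 0.000653).

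HERC6 also rose in sgAAVS1 cells with Dox. The DMSO libraries had 19.9, 19.6, 18.6 and 20.7 CPM and the Dox libraries 25.6, 24.2, 27.0 and 22.6, with no overlap (log2 0.33, SE 0.072, adjusted p = 0.000595). UBE2L6, the enzyme that loads ISG15 onto its ligase, rose from 39.1 ± 1.93 to 44.5 ± 1.75 CPM (log2 0.19, SE 0.053, adjusted p = 0.00973). SAMD9, an antiviral restriction factor, had 12.9, 15.2, 12.0 and 15.4 CPM with DMSO and 17.7, 17.3, 17.3 and 17.1 with Dox. Its Dox libraries differed little from each other and all exceeded the DMSO libraries (log2 0.32, SE 0.093, adjusted p = 0.0127). IFI6, an antiviral protein of the endoplasmic reticulum, had a log2 fold change of 0.64 (SE 0.23, adjusted p = 0.0489), and SP100, a nuclear body component, one of 0.16 (SE 0.046, adjusted p = 0.00919). The calls of HERC6 and IFIT5 were kept in all alternative fits. That of IFI6 was lost without any 1 of the DMSO libraries or Dox replicate 1 or 4 (adjusted p up to 0.285), that of IFIT3 without DMSO replicate 3 or Dox replicate 1, those of SAMD9 and UBE2L6 without DMSO replicate 3 and DMSO replicate 4, and that of SP100 without DMSO replicate 1 or 2; without DMSO replicate 3, 4 members were called.

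In sgIGF2BP2 cells, Dox raised 6 members and lowered 3 (26.5% of 34, against 20.4% of all genes called, 10.0% higher and 10.4% lower). The median log2 fold change was 0.077, against 0.008 over all genes. IFI6 was at 1.82, 1.80, 2.04 and 2.86 CPM with DMSO and at 4.71, 5.42, 3.11 and 3.58 with Dox, without overlap. This 2.02-fold rise (log2 1.02, SE 0.21, adjusted p = 0.000128) was kept in every alternative fit, with log2 values between 0.85 and 1.17. IFIT3 rose by a log2 of 0.61 (SE 0.17, adjusted p = 0.00757), although DMSO replicate 2, at 4.03 CPM, lay among the Dox libraries (3.95 to 4.48). Without DMSO replicate 3 its adjusted p was 0.0965.

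UBE2L6 rose from 41.2 ± 1.33 to 46.9 ± 1.25 CPM in the same cells (log2 0.19, SE 0.052, adjusted p = 0.00609), and PML, the scaffold of nuclear bodies, from 49.8 ± 2.30 to 57.0 ± 2.81 (log2 0.19, SE 0.051, adjusted p = 0.00489). TRIM21, a cytosolic antibody receptor, and PARP12, an ADP-ribosyltransferase, were also called higher, by log2 0.26 (SE 0.084, adjusted p = 0.0223) and 0.15 (SE 0.053, adjusted p = 0.0304). The 3 members that fell were ADAR, CGAS and OAS3. ADAR was at 334.7, 337.0, 333.0 and 339.0 CPM with DMSO and at 309, 295, 294 and 298 with Dox. The groups were well apart, and ADAR fell by 0.17 on the log2 scale (SE 0.030, adjusted p = 2.05e-05). CGAS fell by 0.18 (SE 0.053, adjusted p = 0.00863), from 47.3, 45.0, 47.0 and 45.7 CPM to 43.5, 41.1, 39.3 and 39.1, and OAS3 fell by 0.15 (SE 0.047, adjusted p = 0.0125). Without Dox replicate 2, the library that stands apart, 8 members were called; the calls of PARP12, TRIM21 and OAS3 were lost (adjusted p 0.0533, 0.0518 and 0.0791), and each was also lost without 1 or more of the other libraries, PARP12 without DMSO replicate 1 or 4 or Dox replicate 3, TRIM21 without DMSO replicate 3 or Dox replicate 1 or 4, and OAS3 without DMSO replicate 2. PARP12 was also lost without the low-count filter (adjusted p = 0.0518) and with only the groups compared (adjusted p = 0.0592).

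In sgIGF2BP3 cells, Dox led to 1 call, IFIT3, among the 34 members (2.94%, against 2.64% of all genes, 1.64% higher and 1.01% lower), a share close to that of all genes. At an unadjusted p under 0.05 the counts were 17 of 34 members (50.0%) and 16.6% of all genes. With only the groups compared in the fit 4 members were called (BST2, IFIT3, IFITM2 and IFITM3, all higher). That fit also called more genes over the whole table than the main fit, so this count cannot be set against the 2.64%. IFIT3 was at 2.07, 2.18, 1.91 and 1.58 CPM with DMSO and at 3.43, 3.78, 3.15 and 2.65 with Dox, without overlap. The log2 fold change was 0.73 (SE 0.20, adjusted p = 0.0276). Without DMSO replicate 3 or 4 or Dox replicate 1 or 2 the adjusted p was between 0.0585 and 0.109. IFI6 (log2 0.64, SE 0.23, adjusted p = 0.127) and UBE2L6 (log2 0.17, SE 0.053, adjusted p = 0.0573) did not pass, and 27 of 34 members had a value above 0, with a median of 0.111 against 0.003 over all genes.

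IFIT2, the neighbour of IFIT3 on chromosome 10, had log2 values of 0.95, 1.22 and 1.18 with Dox in the sgAAVS1, sgIGF2BP2 and sgIGF2BP3 lines, and none passed (adjusted p 0.0632, 0.05004 and 0.112; the second is just above the threshold of 0.05). It was close to the limit of detection, at 0.237 ± 0.117 CPM in sgIGF2BP2 DMSO and 0.606 ± 0.222 with Dox, and the Dox and DMSO libraries overlapped in the sgAAVS1 and sgIGF2BP2 lines but not in the sgIGF2BP3 line. IFIT2 (chr10:89283694-89309276), IFIT3 (chr10:89327894-89340971), IFIT1 (chr10:89392546-89406486) and IFIT5 (chr10:89414586-89421001) lie in 1 cluster on the plus strand (GENCODE release 29, GRCh38). These 4 neighbours ranged from 0.0897 CPM per kilobase for IFIT1 and 0.158 for IFIT2 to 1.20 for IFIT3 and 4.05 for IFIT5.

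The Dox effects of the lines were also tested against each other. Each guide pair was in 1 line only, so loss of an IGF2BP gene, the line and the cut site cannot be told apart here. Against the sgAAVS1 line, the sgIGF2BP2 line differed in 4 members (11.8%, against 6.97% of all genes, 4.01% higher and 2.97% lower). Dox raised IFIT5 in sgAAVS1 cells, and the difference was −0.37 on the log2 scale (SE 0.11, adjusted p = 0.0369). EIF2AK2 differed by −0.22 (SE 0.065, adjusted p = 0.0275) and ADAR by −0.13 (SE 0.043, adjusted p = 0.0416). The exonuclease ISG20 differed by 0.27 (SE 0.083, adjusted p = 0.0343), with means of 46.9 and 43.2 CPM in sgAAVS1 cells and 45.3 and 49.9 in sgIGF2BP2 cells, with DMSO and Dox. Without sgIGF2BP2 Dox replicate 2, and likewise without sgAAVS1 Dox replicate 1, none of the 4 passed, and ISG20 alone remained called with only the 4 groups compared in the fit. ADAR also lost its call without any other library except sgAAVS1 DMSO replicate 1 or 4, sgAAVS1 Dox replicate 2 or sgIGF2BP2 Dox replicate 1. EIF2AK2 lost it without sgAAVS1 DMSO replicate 2 or 3, sgIGF2BP2 DMSO replicate 1 or 3 or Dox replicate 3, IFIT5 without sgAAVS1 DMSO replicate 2 or Dox replicate 2 or 4, sgIGF2BP2 DMSO replicate 1 or 4 or Dox replicate 3, and ISG20 without sgAAVS1 DMSO replicate 1 or sgIGF2BP2 DMSO replicate 3 or 4. With an offset for GC content and length EIF2AK2, IFIT5 and ISG20 did not pass (adjusted p 0.0991, 0.0962 and 0.0698), and without the low-count filter ADAR did not (adjusted p = 0.0877).

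Against the sgAAVS1 line, the sgIGF2BP3 line differed in 1 member (2.94%, against 7.78% of all genes, 4.53% higher and 3.25% lower). HERC6 differed by −0.33 (SE 0.10, adjusted p = 0.0349), since it was at 20.6 ± 1.12 CPM with DMSO and 20.6 ± 0.448 with Dox in sgIGF2BP3 cells. That call was lost without any of 8 single libraries: sgAAVS1 DMSO replicate 2 or 3, sgAAVS1 Dox replicate 1 or 3, sgIGF2BP3 DMSO replicate 2 or 4, or sgIGF2BP3 Dox replicate 3 or 4. It was also lost with an offset for GC content and length (adjusted p = 0.0597). The count was 5 without sgAAVS1 DMSO replicate 4 (1 higher and 4 lower), 2 without sgIGF2BP3 DMSO replicate 1 or Dox replicate 2, and 2 without the low-count filter, with a mean CPM of at least 1, with the replicate block, with only the groups compared and with DESeq2. Between the sgIGF2BP3 and sgIGF2BP2 lines, the Dox effects differed in none of the 34 by edgeR (against 2.91% of all genes, 1.69% higher and 1.23% lower). There, 8 members had an unadjusted p under 0.05 (23.5%, against 14.9% of all genes), and DESeq2 called 1. For the genes that rose with Dox, the differences from sgAAVS1 were 0.01 (SE 0.25) and 0.13 (SE 0.27) for IFIT3, 0.37 (SE 0.32) and −0.01 (SE 0.34) for IFI6, and −0.00 (SE 0.074) and −0.01 (SE 0.075) for UBE2L6, in the sgIGF2BP2 and sgIGF2BP3 lines; none passed.

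The siControl libraries were set against DMSO to ask what transfection with RNA did. In sgIGF2BP2 cells 3 members were higher and 2 lower (14.7%, against 18.4% of all genes, 10.2% higher and 8.16% lower), which is not above the share of all genes, and the median was −0.001 against −0.002 over all genes. In sgIGF2BP3 cells 7 were higher and 2 lower (26.5%, against 19.4%, 10.9% higher and 8.54% lower), with a median of 0.041 against −0.004. The tests of the difference between the 2 lines called 0 of 34 members by edgeR and 0 by DESeq2 (0.00875% of all genes). An unadjusted p under 0.05 was found for 1 member (2.94%, against 5.16% of all genes). The summed epithelial markers were lower in the transfected groups, at 244.8 to 249.1 CPM in sgIGF2BP2 siControl and 247.5 to 264.4 in sgIGF2BP3 siControl, against 274.4 to 292.4 in the DMSO libraries of both lines. Most of the sum was keratin. From DMSO to siControl, KRT18 went from 199.2 to 169.7 and from 191.2 to 175.9 CPM in the sgIGF2BP2 and sgIGF2BP3 lines. KRT8 went from 54.7 to 44.9 and from 55.1 to 45.6. EPCAM was not lower (13.6 to 14.48 and 13.57 to 14.05), and CDX2 went from 19.5 to 18.5 and from 18.1 to 19.35. The part of these genes in the values below was not tested.

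UBE2L6 (chr11:57551656-57568284, minus strand) rose in both lines. In sgIGF2BP2 cells it went from 39.97, 41.4, 40.4 and 43.0 CPM to 50.04, 53.5, 49.2 and 53.8, and in sgIGF2BP3 cells from 40.4, 39.4, 38.3 and 38.8 to 53.4, 49.8, 52.4 and 56.2. In both lines every transfected library exceeded every DMSO library, with log2 fold changes of 0.33 (SE 0.051, adjusted p = 1.04e-06) and 0.43 (SE 0.052, adjusted p = 9.87e-10). ISG15, USP18, HERC5 and HERC6 were not called in either line, and ISG15 had log2 values of −0.12 (SE 0.063) and −0.07 (SE 0.065). IFIT2 rose 2.85-fold in sgIGF2BP2 cells, from 0.248, 0.343, 0.285 and 0.0716 CPM to 0.765, 0.393, 0.759 and 0.904 (log2 1.51, SE 0.43, adjusted p = 0.00745). The groups did not overlap, but 3 of the 4 DMSO values are below 0.3 CPM, and in sgIGF2BP3 cells IFIT2 did not pass (log2 0.89, SE 0.43, adjusted p = 0.146). SAMD9 was called higher in sgIGF2BP2 cells (log2 0.25, SE 0.089, adjusted p = 0.0396), with overlapping libraries, and lost its call without any of 6 single libraries, all but DMSO replicate 4 and siControl replicate 1, and with an offset for GC content and length (adjusted p = 0.0687).

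IFIT3 and IFI6 rose in sgIGF2BP3 cells with siControl. IFIT3 was at 2.07, 2.18, 1.91 and 1.58 CPM with DMSO and 1.95, 3.88, 3.12 and 2.89 with siControl (log2 0.65, SE 0.20, adjusted p = 0.0143), so siControl replicate 1 lay within the DMSO range. IFI6 was at 1.38, 1.83, 2.12 and 2.07 CPM with DMSO and 4.69, 3.94, 2.11 and 2.33 with siControl, again with overlap (log2 0.83, SE 0.23, adjusted p = 0.00549). DTX3L, the ubiquitin ligase that pairs with PARP9, rose by log2 0.30 (SE 0.082, adjusted p = 0.00499), and IFI35, OAS3 and the antiviral GTPase MX1 by 0.26 (SE 0.096, adjusted p = 0.0474), 0.16 (SE 0.046, adjusted p = 0.00747) and 0.15 (SE 0.055, adjusted p = 0.0410). The calls of UBE2L6, DTX3L, CGAS and IFITM2 were kept in every alternative fit, whereas MX1 and IFI35 were each lost without any of 7 single libraries, all but DMSO replicate 3 for MX1 and all but DMSO replicate 1 for IFI35. MX1 was also lost without the low-count filter (adjusted p = 0.0783), with DESeq2 (0.0509) and with the GC and length offset (0.0579). Without siControl replicate 2, 4 members were called, and IFIT3, IFI6 and OAS3 did not pass (adjusted p 0.161, 0.0563 and 0.0676); IFIT3 was also lost without DMSO replicate 4 (adjusted p = 0.0561) and IFI6 without siControl replicate 1 (adjusted p = 0.0501).

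The same 2 members were called lower with siControl in both lines, the DNA sensor gene CGAS (chr6:73413515-73452276, minus strand) and IFITM2. CGAS was at 42.8, 40.8, 37.8 and 41.2 CPM with siControl in sgIGF2BP2 cells and fell by 0.19 on the log2 scale (SE 0.052, adjusted p = 0.00662). In sgIGF2BP3 cells it went from 47.5, 46.8, 42.8 and 50.0 to 43.9, 39.0, 38.6 and 41.4 and fell by 0.20 (SE 0.053, adjusted p = 0.00325), with 1 overlapping library on each side. IFITM2 fell by 0.19 (SE 0.044, adjusted p = 0.00114) and by 0.18 (SE 0.045, adjusted p = 0.00220), and in both lines all siControl libraries lay below all DMSO libraries. CGAS shares 180 exon bases with DDX43 on the opposite strand, and use of strand in the counting is not given in the sources used here.

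The siIGF2BP2 pool, set against siControl in sgIGF2BP2 cells, gave the most calls: 12 members higher and 3 lower (44.1%, against 36.8% of all genes, 18.4% higher and 18.4% lower). The median log2 fold change was 0.076, against 0.011 over all genes. STAT2, the transactivating subunit of the interferon-activated complex, was at 43.1, 42.1, 43.5 and 38.1 CPM with siControl and 52.8, 47.8, 52.4 and 54.5 with siIGF2BP2. It rose by log2 0.31 without overlap (SE 0.050, adjusted p = 4.92e-07). BST2, which tethers budding virus particles to the cell, was at 359.5, 394.3, 377.9 and 399.9 CPM and then at 443, 458, 535 and 462. BST2 (chr19:17402939-17405648, minus strand) rose by log2 0.31 (SE 0.045, adjusted p = 6.70e-08), also without overlap, and its highest value was in replicate 3, the library that stands apart.

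SAMD9 (chr7:93099513-93118023, minus strand) was at 14.8, 17.5, 19.6 and 17.8 CPM with siControl and 24.2, 22.6, 19.3 and 24.4 with siIGF2BP2 (log2 0.39, SE 0.085, adjusted p = 0.000175); replicate 3 of each group overlapped. IFI6 was at 1.84, 3.61, 3.59 and 3.69 CPM and then at 4.59, 4.31, 4.76 and 4.99 (log2 0.59, SE 0.19, adjusted p = 0.00976), and without the low siControl replicate 1 its log2 value was 0.37 and its adjusted p 0.135. CGAS rose by 0.26 (SE 0.052, adjusted p = 5.09e-05) to 51.4, 47.7, 45.0 and 50.7 CPM. Its level with siIGF2BP2 was therefore close to the 45.0 to 47.3 CPM of the DMSO libraries, and the siControl libraries, which were lower, enter both comparisons.

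Smaller rises with siIGF2BP2 were those of TRIM21 (log2 0.25, SE 0.083, adjusted p = 0.0151), PARP9 (0.25, SE 0.086, adjusted p = 0.0184), the transcription factor IRF1 (0.23, SE 0.082, adjusted p = 0.0215), IFI35 (0.23, SE 0.091, adjusted p = 0.0401), UBE2L6 (0.15, SE 0.049, adjusted p = 0.0134), PML (0.14, SE 0.051, adjusted p = 0.0250) and OAS3 (0.12, SE 0.045, adjusted p = 0.0343). The 3 falls were those of ISG20, from 45.0, 45.1, 40.6 and 49.5 CPM to 33.8, 33.8, 41.0 and 37.1 (fell by 0.30, SE 0.060, adjusted p = 4.26e-05), PARP12 (fell by 0.21, SE 0.054, adjusted p = 0.00148) and ADAR (fell by 0.18, SE 0.030, adjusted p = 1.86e-06). ADAR was at 333.1, 323.8, 323.9 and 326.4 CPM with siControl and at 301.0, 287.7, 267.3 and 299.1 with siIGF2BP2, lowest in replicate 3, with no overlap. Without that replicate 15 members were called, 11 higher and 4 lower. Without siIGF2BP2 replicate 4, 8 were called, and the 7 small rises just named were the calls lost. Each of those 7 was also lost without 1 to 4 of the other libraries (siControl replicate 1: PARP9, IRF1, UBE2L6, PML; replicate 3: TRIM21, UBE2L6, OAS3, IFI35; replicate 4: PARP9, OAS3; siIGF2BP2 replicate 1: OAS3, PML; replicate 2: PARP9, IRF1, OAS3, IFI35; replicate 3: IFI35), with an adjusted p of at most 0.276. The GC and length offset lost UBE2L6, PML and IFI35 (adjusted p 0.140, 0.0539 and 0.145), omitting the low-count filter lost IRF1 and OAS3 (0.0528 and 0.0545), only the groups compared lost OAS3 and IFI35 (0.0866 and 0.0733), and DESeq2 lost IFI35 (0.0526). The summed epithelial markers were at 205.3 to 244.2 CPM with siIGF2BP2, below siControl; KRT18 was at 120.4 CPM against 169.7, KRT8 at 65.6 against 44.9, and the part of these genes in the result was not tested.

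The siIGF2BP3 pool, set against siControl in sgIGF2BP3 cells, gave 2 calls, both lower (5.88%, against 2.34% of all genes, 0.936% higher and 1.40% lower). The median log2 fold change was 0.078, against 0.002 over all genes, and 26 of 34 members were above 0. USP18 (chr22:18149899-18177397, plus strand), which removes ISG15 from proteins and dampens signalling at the type I interferon receptor, was at 8.80, 6.01, 5.57 and 8.27 CPM with siControl and at 4.72, 3.46, 2.54 and 3.92 with siIGF2BP3. The groups did not overlap, and USP18 fell by 0.93 on the log2 scale (SE 0.15, adjusted p = 6.20e-06), to a mean of 3.66 ± 0.907 from 7.16 ± 1.61 CPM. The call was kept in all alternative fits, with log2 values between −1.08 and −0.81. In the other 9 groups USP18 had mean levels between 5.69 and 7.16 CPM. Its near-identical copy USP41 had at most 3 counts in any library.

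CMPK2, a mitochondrial nucleotide kinase, fell by 0.48 with siIGF2BP3 (SE 0.14, adjusted p = 0.0481), from 5.47, 5.22, 4.81 and 5.62 CPM to 3.88, 3.99, 3.45 and 3.70. The libraries did not overlap, but the call was lost without each of the 8 libraries in turn (adjusted p up to 0.135), without the low-count filter (0.0913), with the replicate block (0.0529) and with DESeq2 (0.0654). When the gene IGF2BP3 was instead cut with Dox, USP18 had a log2 value of −0.31 (SE 0.13, adjusted p = 0.218) and CMPK2 one of 0.30 (SE 0.14, adjusted p = 0.230), and neither passed.

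The effects of the 2 siRNA pools differed in 5 members (14.7%, against 18.7% of all genes, 9.88% higher and 8.82% lower), all kept in every alternative fit. The difference, siIGF2BP3 minus siIGF2BP2, was −0.92 for USP18 (SE 0.20, adjusted p = 0.000283), −0.41 for STAT2 (SE 0.072, adjusted p = 1.29e-05) and −0.27 for BST2 (SE 0.064, adjusted p = 0.00107). It was 0.34 for PARP12 (SE 0.076, adjusted p = 0.000527) and 0.17 for ADAR (SE 0.043, adjusted p = 0.00286). STAT2 was at 38.6, 39.6, 40.1 and 41.2 CPM with siIGF2BP3, against 40.9, 45.4, 42.4 and 40.9 with its siControl, and was not called there. The 2 pools were used in different lines, so line and pool cannot be told apart here.

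The double-stranded RNA sensors RIG-I (DDX58), MDA5 (IFIH1) and PKR (EIF2AK2) were called in none of the 7 comparisons. DDX58 had log2 values between −0.18 and 0.10 in the 7 comparisons and group means between 4.96 and 6.05 CPM. IFIH1 had log2 values between −0.03 and 0.34 and group means between 3.53 and 4.83 CPM, and EIF2AK2 between −0.10 and 0.11, at 91.3 to 102.7 CPM. With siControl against DMSO, where RNA was transfected, DDX58 was at −0.18 (SE 0.13) and −0.09 (SE 0.13), IFIH1 at 0.06 (SE 0.16) and 0.24 (SE 0.17) and EIF2AK2 at −0.04 (SE 0.045) and −0.07 (SE 0.046), in the sgIGF2BP2 and sgIGF2BP3 lines, and none was called. DDX58 and IFIH1 had larger standard errors than EIF2AK2, so only larger changes were detectable for them.

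Between the DMSO groups of the 3 lines, edgeR's quasi-likelihood test called 0 of 34 members in each of the 3 comparisons, against 0.0175% of all genes, and DESeq2 also called 0. An unadjusted p under 0.05 was found for 2 members in sgIGF2BP2 against sgAAVS1 (5.88%, against 6.32% of all genes). The number was 3 for sgIGF2BP3 against sgAAVS1 (8.82%, against 11.6%) and 4 for sgIGF2BP3 against sgIGF2BP2 (11.8%, against 5.71%). IFIT2 spanned the widest range, at 0.483 ± 0.0965, 0.237 ± 0.117 and 0.322 ± 0.0779 CPM in sgAAVS1, sgIGF2BP2 and sgIGF2BP3 cells.

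Other genes of the pathway, from a list of 78, were read from the same fit. None of the 8 interferon genes on the list could be tested: IFNB1, IFNA1, IFNL2, IFNL3 and IFNG had no count, IFNK had 1 and IFNL1 2 in all libraries together, and IFNE had 167. All 6 receptor genes were expressed, from IL10RB with 0.204 CPM per kilobase to IFNAR1 with 11.5, and so were the kinases TYK2 (32.2) and JAK1 (19.95), the RIG-I adaptor MAVS (11.6) and IRF3 (26.7), the factor activated by the sensors. Of the 56 tested, 7 were higher and 3 lower with Dox in sgAAVS1 cells, 11 and 1 in sgIGF2BP2 cells and 2 and 0 in sgIGF2BP3 cells. These were 17.9%, 21.4% and 3.57% of the 56, against 15.9%, 20.4% and 2.64% of all genes. The shares called higher were 12.5%, 19.6% and 3.57%, against 7.25%, 10.0% and 1.64% of all genes. The shares called lower were 5.36%, 1.79% and 0.0%, against 8.68%, 10.4% and 1.01%. With siControl 9 and 12 were higher and 0 lower in the sgIGF2BP2 and sgIGF2BP3 lines, with siIGF2BP2 13 were higher and 12 lower, and with siIGF2BP3 1 and 1. These shares were 16.1%, 21.4%, 44.6% and 3.57%, against 18.4%, 19.4%, 36.8% and 2.34% of all genes. In the same order, 16.1%, 21.4%, 23.2% and 1.79% were called higher, against 10.2%, 10.9%, 18.4% and 0.936% of all genes. The shares called lower were 0.0%, 0.0%, 21.4% and 1.79%, against 8.16%, 8.54%, 18.4% and 1.40%.

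Among these, Dox in sgAAVS1 cells raised SAMD9L (log2 0.59, SE 0.13), the paralog of SAMD9, the endosomal RNA sensor TLR3 (0.55, SE 0.15), the GTPase GBP3 (0.41, SE 0.069), IFNGR1 (0.31, SE 0.083) and IKBKE (0.29, SE 0.089). In sgIGF2BP2 cells the greatest values with Dox were those of LGALS3BP (0.76, SE 0.28), SP110 (0.53, SE 0.093), SAMD9L (0.41, SE 0.13), DDX60L (0.33, SE 0.085) and SLFN5 (0.32, SE 0.072), and in sgIGF2BP3 cells NLRX1 (0.24, SE 0.056) and ZNFX1 (0.21, SE 0.046) were called. With siControl, DDX60L, a relative of the helicase DDX60, rose by 0.47 (SE 0.082) and 0.33 (SE 0.084) in the sgIGF2BP2 and sgIGF2BP3 lines, and NLRX1, a mitochondrial regulator of the MAVS pathway, by 0.26 (SE 0.055) and 0.34 (SE 0.055). GBP3 (0.23, SE 0.069), TBK1 (0.23, SE 0.058) and RNF213 (0.21, SE 0.055) were the next in sgIGF2BP2 cells, and LGALS3BP (0.90, SE 0.26), DDX60 (0.49, SE 0.15) and TLR3 (0.42, SE 0.15) in sgIGF2BP3 cells.

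With siIGF2BP2 the greatest changes on the pathway list were a rise of GBP1 (log2 1.44, SE 0.43, from 0.367 ± 0.175 to 0.982 ± 0.444 CPM) and a fall of NMI, a partner of IFI35 (fell by 0.92, SE 0.087, adjusted p = 5.46e-14, from 21.4 ± 1.30 to 11.2 ± 0.599 CPM). LGALS3BP (0.81, SE 0.24), DDX60 (0.51, SE 0.14) and GBP3 (0.44, SE 0.065) rose. With siIGF2BP3, GBP3 rose by 0.25 (SE 0.067) and STAT3 fell by 0.14 (SE 0.041).

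Without sgIGF2BP2 Dox replicate 2, LGALS3BP did not pass with Dox (log2 0.71, SE 0.31, adjusted p = 0.106), and SP110, SAMD9L, DDX60L and SLFN5 kept their calls, with log2 values of 0.60, 0.45, 0.31 and 0.41. Without sgIGF2BP2 siIGF2BP2 replicate 3, GBP1, NMI, LGALS3BP, DDX60 and GBP3 kept theirs, with log2 values of 1.62, −0.91, 0.84, 0.57 and 0.48. The call of LGALS3BP with Dox in sgIGF2BP2 cells was lost in 9 of 15 alternatives in all. With siControl in sgIGF2BP3 cells TLR3 was lost in 9 and DDX60 in 2, and with siIGF2BP3 STAT3 was lost in 9 and GBP3 in 5. SAMD9L with Dox in sgIGF2BP2 cells was lost without DMSO replicate 4 or Dox replicate 4, and NLRX1 with Dox in sgIGF2BP3 cells without Dox replicate 2 or with the GC and length offset. IKBKE with Dox in sgAAVS1 cells was lost without DMSO replicate 1, GBP3 with siControl in sgIGF2BP2 cells without siControl replicate 1, and GBP1 and LGALS3BP with siIGF2BP2 without siIGF2BP2 replicate 4. The other pathway calls named kept theirs in every alternative fit.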

How the data were processed

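Poly(A) RNA of 40 libraries was sequenced after s4U labelling, and the authors deposited 1 table of whole-number read counts per gene with no normalization, per the file headers. The submitters' processing notes name bcl2fastq 2.20.0.422, STAR 2.7.5c and the build hg38; the counting tool, its annotation and its use of strand are not given in the sources used here, and s4U conversions were not used here. Identifiers were named with GENCODE release 29.

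The members and lists were chosen with earlier results of these data known. Genes were filtered with filterByExpr, scaled by TMM and fitted with 1 coefficient per group over all libraries in edgeR 4.0.16 (R 4.3.3), with the quasi-likelihood test and Benjamini-Hochberg adjustment over 11428 genes; a call is an adjusted p under 0.05. CPM values use the TMM library size, and per-kilobase values divide them by exon length. Standard errors were derived from the log2 fold change and its F statistic. In data simulated for sgAAVS1 Dox over 11428 genes, 92% of 1.5-fold and 95% of 2-fold changes were recovered, with 6.03% false among the calls. The changed genes, 100 of each size, were drawn at random from all tested genes. Changes below 1.5-fold, the size of most member calls, were not simulated, so these rates do not apply to them or to members with few counts.

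Named genes are members called in a treatment comparison (at most 20 each) or in a comparison of effects or lines (at most 5 each), all sensors, the 5 members highest per length, all untested members, and at most 5 pathway genes per treatment comparison by size. Genes named outside this rule were chosen after their values were seen. Alternatives were RLE scaling, DESeq2 1.42.0, no low-count filter, a mean CPM of at least 1, fits of only the groups compared, a replicate block and leaving out each library. An offset for GC content and length was added after seeing the data.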

Additional observations from a re-analysis of the deposited data

Results flagged for a closer look

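In groups of 4 libraries, 14 of 250 member groups held 1 library far from the other 3 (about 5% are expected by chance). For IFIT2 these were sgAAVS1 DMSO replicate 2 at 0.339 CPM, sgIGF2BP2 Dox replicate 2 at 0.276 and sgIGF2BP3 DMSO replicate 4 at 0.207, each below its group. IFIT3 stood at 4.48 CPM in sgIGF2BP2 Dox replicate 2, above its group, and IFI6 at 1.84 CPM in sgIGF2BP2 siControl replicate 1, below it. In the sgAAVS1 DMSO group, OAS3 was at 80.7 CPM and ISG20 at 48.5 in replicate 1, and MX1 was at 36.4 in replicate 4. In sgAAVS1 Dox replicate 1, ISG20 was at 39.0 CPM and PARP12 at 52.6. IRF1 was at 11.8 CPM in sgIGF2BP2 Dox replicate 3, and CGAS at 51.3 in sgIGF2BP3 Dox replicate 1. SP100 was at 86.3 CPM in sgIGF2BP2 DMSO replicate 2 and PML at 46.4 in replicate 1 of that group.

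Tests of the difference between effects passed for 10 results. The Dox effect in sgIGF2BP2 minus that in sgAAVS1 cells was −0.37 for IFIT5, 0.27 for ISG20, −0.22 for EIF2AK2 and −0.13 for ADAR on the log2 scale. The Dox effect in sgIGF2BP3 minus that in sgAAVS1 cells was −0.33 for HERC6. The siIGF2BP3 effect minus the siIGF2BP2 effect was −0.92 for USP18, −0.41 for STAT2, 0.17 for ADAR, −0.27 for BST2 and 0.34 for PARP12. In these comparisons, in this order, 11.8%, 2.94% and 14.7% of members passed, against 6.97%, 7.78% and 18.7% of all genes. The Dox differences were each lost in 6 to 14 of 23 alternative fits, and the siRNA differences in none. The causes were not tested.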

How the results depend on the processing

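Of 58 member calls, 28 were kept in all alternatives run and 30 were lost in at least 1, 16 of them only when a library was left out; none changed sign. By setting, RLE scaling lost 0 calls, no low-count filter 6, a mean CPM of at least 1 lost 0 of 57, only the groups compared 6 of 57, DESeq2 3, the replicate block 1 and the GC and length offset 9.

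The members called with Dox in sgIGF2BP3 cells went from 1 to 2 without the low-count filter, 2 with the replicate block and 4 with only the groups compared. With siIGF2BP3 they went from 2 to 1 without the filter, with the replicate block and with DESeq2. For the Dox effect in sgIGF2BP2 minus sgAAVS1, 4 became 1 with only the groups compared and 2 with the GC and length offset. For sgIGF2BP3 minus sgAAVS1, 1 became 2 without the filter, with a mean CPM of at least 1, with the replicate block, with only the groups compared and with DESeq2, and 0 with the offset. For sgIGF2BP3 minus sgIGF2BP2, 0 became 1 with DESeq2 and 2 with the offset, and for the siRNA pools 5 became 8 with the offset. The cause was not tested.

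Leaving out each library in turn gave 4 to 8 calls with Dox in sgAAVS1, 7 to 10 in sgIGF2BP2 and 0 to 1 in sgIGF2BP3 cells. With siControl it gave 4 to 6 in sgIGF2BP2 and 4 to 8 in sgIGF2BP3 cells, with siIGF2BP2 8 to 15 and with siIGF2BP3 1 in every case. For the differences it gave 0 to 5 (sgIGF2BP2 minus sgAAVS1), 0 to 5 (sgIGF2BP3 minus sgAAVS1, with 5 without sgAAVS1 DMSO replicate 4), 0 to 1 (sgIGF2BP3 minus sgIGF2BP2) and 5 to 6 (siRNA pools).

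Deviations of same-numbered libraries of different groups had correlations of −0.152 to 0.114 (median 0.0116, 180 pairs). The median for libraries of other numbers was −0.0051. Of the 40 libraries, 19 correlated best, on average, with libraries of their own number, out of 4 numbers. Whether the numbers pair the samples is therefore not settled by these values. With the replicate block in edgeR's quasi-likelihood test, the only member call lost was CMPK2 with siIGF2BP3 (adjusted p = 0.0529).

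Over all genes, calls with Dox in sgIGF2BP3 cells went from 302 to 477 with only the groups compared, and with siIGF2BP3 from 267 to 465 with that setting and 434 with the offset. The offset took the difference from sgAAVS1 from 889 to 406 and that from sgIGF2BP2 from 333 to 601. Between DMSO groups, calls for sgIGF2BP3 against sgAAVS1 went from 2 to 35 without the filter. Depth limits what can be seen for low genes such as HERC5, IFIT2, IFIT3 and IFI6 and for the 12 untested members.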

Other observations

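Other genes of DNA sensing and of the interferon response also differed widely in level. IFI16, a nuclear DNA sensor, was at 61.6 CPM per kilobase, above cGAS, and its group means lay between 286.5 and 382.4 CPM. AIM2, the sensor that triggers an inflammasome, and the chemokine genes CXCL10, CXCL11 and CCL5 had no count in any of the 40 libraries. ZBP1, a sensor of left-handed nucleic acid, had 2 counts in all libraries together, CASP1 had 7 and RSAD2, which encodes viperin, had 61.

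The pattern TTCNNNGAA, the letters bound by STAT dimers, was in 20.8% of the members' promoter windows and in 7.66% of all windows, searched on both strands with overlaps counted. It was found for 9 members. A match describes the letters only.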
